A study of Mus musculus with 8 samples.

Results

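Potassium and hyperpolarisation-activated (HCN) channel genes were examined in sorted cells of the mouse central amygdala. Members were taken by symbol, as every gene whose name begins with Kcn and a further letter together with the 4 Hcn genes, which gave 98 of the 20692 genes measured. They comprise pore-forming subunits and the accessory subunits that share the Kcn prefix. RNA came from td-Tomato-positive cells of untreated male mice, in 4 PkcdRed libraries (PKC delta-type::Cre crossed to the Rosa::loxP-STOP-loxP-td-Tomato reporter) and 4 SstRed libraries (SST::Cre crossed to the same reporter). Each library was made from sorted cells of a single mouse. The reporter marks any cell in which the Prkcd or Sst promoter has driven Cre, at the time or earlier in life, and no unsorted tissue was compared. PkcdRed replicates 1 and 2 came from mice of 9 weeks and replicates 3 and 4 from mice of 18 weeks. SstRed replicates 1 and 2 came from mice of 8 weeks and replicates 3 and 4 from mice of 20 weeks, so that a younger and an older pair stood in each population.

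Potassium channels let potassium leave the cell and so set the resting potential, end the action potential and control firing rate. Voltage-gated (Kv) channels open on depolarisation, inward rectifiers hold the membrane near rest, leak channels with paired pore domains stay open at rest, and calcium-activated channels follow the calcium that enters during spikes. HCN channels pass an inward current on hyperpolarisation. In the brain many of these genes are expressed by neurons, but others mark glia or vessels: Kcnj10 and Kcnj16 form the inward rectifier of astrocytes, Kcnj8 that of pericytes, and Kcnk13 the leak channel of microglia. The members were therefore split into 9 genes known from microglia, astrocytes, oligodendrocytes or the vessel wall, 69 genes in neuronal classes, and 20 others known from epithelia, peripheral tissue or several sources.

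The libraries held 964361 to 18242496 estimated counts, 10316149 or more in each younger library and 2522749 or fewer in each older one, so age class and depth run together. Prkcd stood at 106.5 to 225.7 TPM (a relative level scaled to transcript length and library total) in PkcdRed and 0 to 30.2 TPM in SstRed libraries. Sst stood at 116.3 to 296.2 TPM in SstRed libraries, and at 222.7 TPM in PkcdRed replicate 2 against 0.209 to 13.7 TPM in the other PkcdRed libraries. Prkcd and Sst are known as markers of neuron classes of the central amygdala, but here 10 neuronal markers summed to 149.5 to 614.3 TPM per library, and 8 oligodendrocyte markers to 11552 to 60655 TPM. All 12 microglial markers were higher in all PkcdRed than in all SstRed libraries (sums of 29144 to 48187 against 447.6 to 5198 TPM). 8 mural cell markers, among them the channel partner Abcc9, summed to 296.6 to 5176 TPM in PkcdRed and 2753 to 14812 TPM in SstRed libraries. Astrocyte markers summed to 451.4 to 4070 TPM and 3139 to 7095 TPM, and endothelial markers to 299.1 to 4776 TPM and 115.3 to 4038 TPM. In bulk libraries such as these, fewer cells of a type and less RNA per cell cannot be told apart.

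The most abundant member was not a neuronal channel but Kcnj8, the Kir6.1 subunit of the ATP-sensitive channel of pericytes and smooth muscle. It had the highest TPM of all 98 members in 7 of the 8 libraries, with a mean of 294.7 TPM over the 8. The exception was PkcdRed replicate 2, where Kcnip2 led with 87.5 TPM. Members together summed to 503.2 to 564.2 TPM in the PkcdRed libraries and 628.9 to 1553 TPM in the SstRed libraries, a description with no test. The 9 glial and vessel genes made up 37.9, 6.98, 54.9 and 67.7% of that sum in PkcdRed replicates 1 to 4. In SstRed replicates 1 to 4 they made up 78.2, 30.5, 51.7 and 50.2%. The 69 neuronal genes made up 50.9, 92.4, 13.8 and 13.98% in PkcdRed and 18.7, 68.1, 32.9 and 14.5% in SstRed libraries. These shares depend on the class given to each gene. Kcne4, counted in neither group, held 134.5 of 558.5 TPM in PkcdRed replicate 3, and Kcnk1, which astrocytes are known to express as well, was counted as neuronal. Neuronal members exceeded glial and vessel members in PkcdRed replicates 1 and 2 and SstRed replicate 2. These libraries also had the highest neuronal marker sums (547.0, 614.3 and 602.5 TPM), and all were younger, deeper libraries. SstRed replicate 2 had the highest oligodendrocyte marker sum as well (60655 TPM). The part of neurons in these shares was not tested.

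**Figure D1:**
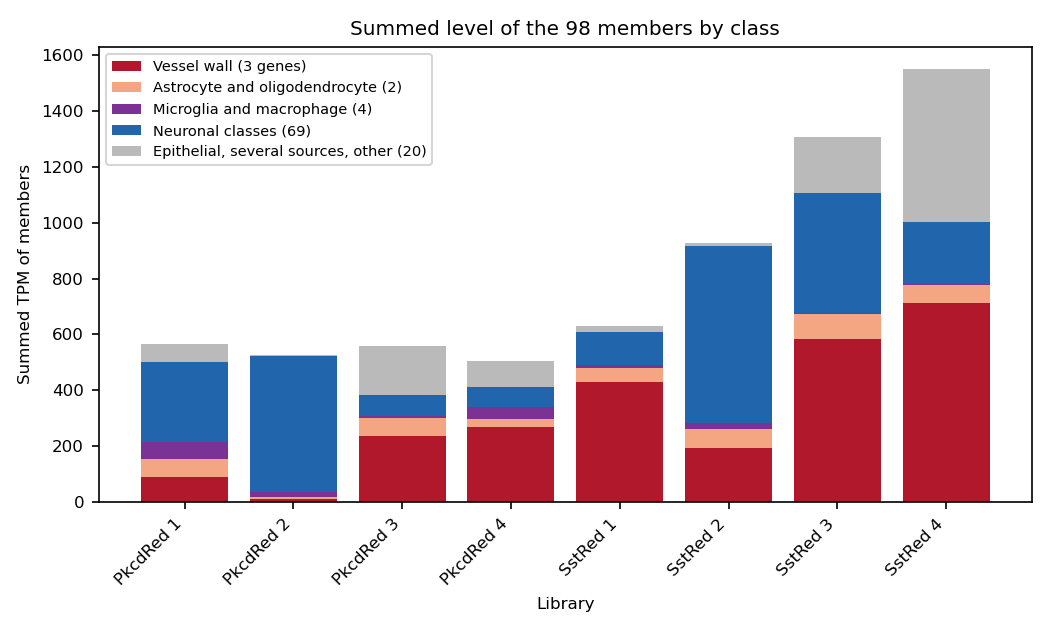
Summed TPM of the 98 members in each of the 8 libraries, stacked by class (y axis, TPM; bars start at 0). The vessel wall class makes up 430.7 of 628.9 TPM in SstRed replicate 1 and 8.74 of 525.5 TPM in PkcdRed replicate 2.

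Detection was sparse. Of the 98 members, 13 had at least 1 read in all 8 libraries, 9 had reads in only 1 library, and 10 had no read in any library: Kcna10, Kcnh7, Kcnj1, Kcnk15, Kcnk16, Kcnk7, Kcnk9, Kcnmb3, Kcnn4 and Kcnv2. With 3 counts as the limit that a count of 0 allows, a gene without reads could still have stood at up to 0.164 CPM (counts scaled to the library total) in PkcdRed replicate 1 and 3.11 CPM in PkcdRed replicate 3, for counting error only. 25 members had a mean of at least 5 TPM over the 8 libraries. The number of members with a read ran from 31 (PkcdRed replicate 3) to 58 (PkcdRed replicate 1 and SstRed replicate 4).

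The main question was whether the channel genes differed between the populations. 29 members had enough reads to be tested with edgeR, and 0 were higher in PkcdRed and 0 were higher in SstRed libraries at a Benjamini-Hochberg adjusted p of 0.05. Over all 11328 genes tested 0.282% were called higher in PkcdRed and 0% higher in SstRed. At an unadjusted p of 0.05, edgeR passed 0 of the 29 members in either direction, against 6.67% of all genes. DESeq2 passed 9 of the 29 members unadjusted (3 higher in PkcdRed and 6 in SstRed), a larger share than the 14.4% of all genes. That difference in share was not tested. After adjustment DESeq2 passed 0 of the 29, against 3.2% of all genes called higher in PkcdRed and 0.812% in SstRed. No tested member separated the populations: 0 of 29 had all libraries of one population above all of the other, where 3.88% of all genes did so towards PkcdRed and 3.05% towards SstRed. The median log2 fold change (PkcdRed minus SstRed) of the 29 was -1.35, beside -0.08 for all genes, and 6 of the 29 were above 0. The read filter kept only members with enough reads, so this median is a description of the tested members and not of all 98. It was -0.76, -0.65, -0.81 and -0.79 without PkcdRed replicate 3, PkcdRed replicate 4, SstRed replicate 1 and SstRed replicate 3. In those fits 44, 43, 28 and 39 members were tested, so the set of members changed as well. Without PkcdRed replicate 1 the median was -1.77 (25 members tested). It was -0.030 in the younger libraries alone (44 tested) and -1.27 in the older alone (17 tested).

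**Figure D2:**
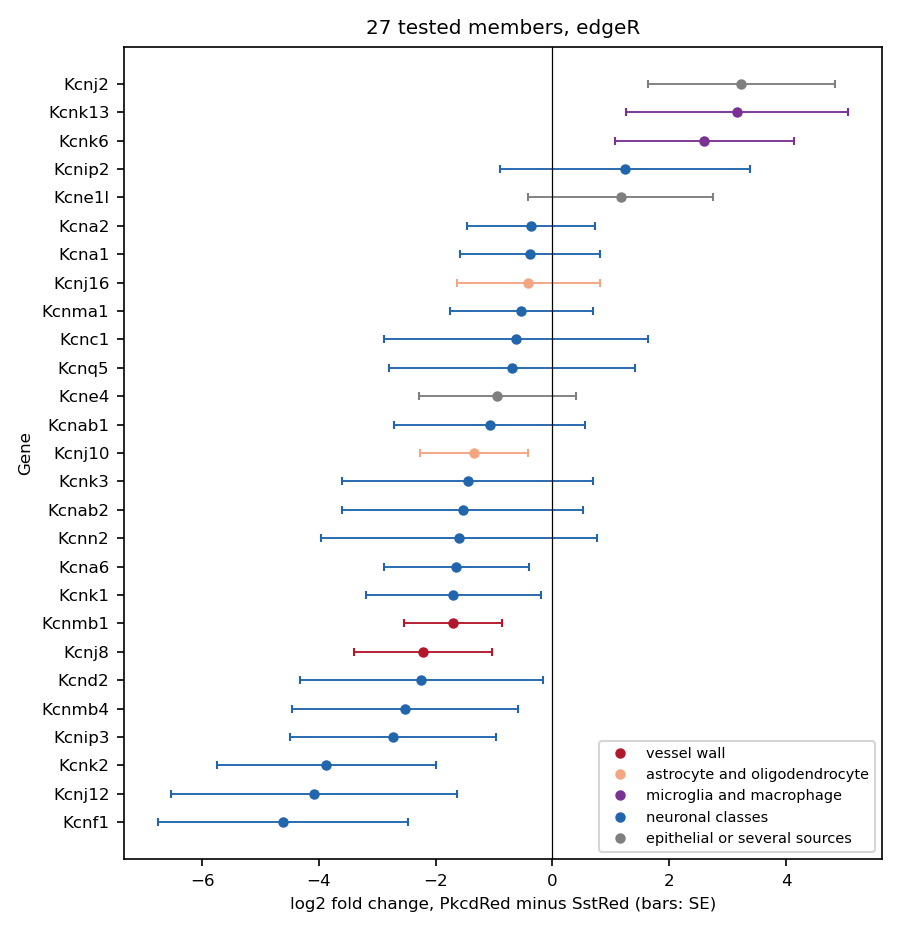
Log2 fold change (x axis, PkcdRed minus SstRed, edgeR; bars are SE) of 27 of the 29 tested members, coloured by class. The 3 highest are Kcnj2 (3.24), Kcnk13 (3.16) and Kcnk6 (2.60), and the lowest is Kcnf1 (-4.61); none passed at an adjusted p of 0.05.

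The vessel wall genes had higher means in SstRed libraries without passing the test. Kcnj8 (chromosome 6, 142564837 to 142571614, GRCm38) had 77.2, 0.0677, 227.9 and 256.3 TPM in PkcdRed replicates 1 to 4 and 395.5, 187.3, 539.6 and 673.9 TPM in SstRed replicates 1 to 4. Only SstRed replicate 2 fell within the PkcdRed range, and PkcdRed replicate 2 had a single Kcnj8 read among 10316149. The means were 140.4 ± 122.2 and 449.1 ± 208.3 TPM (SD, n = 4 each), and the log2 fold change in edgeR was -2.21 ± 1.18 (SE; adjusted p 0.810). It was -3.08 (adjusted p 0.9997) in the younger and -1.29 (0.483) in the older libraries alone, and -1.57 without PkcdRed replicate 2. The alternatives put its adjusted p between 0.0210 and 0.9997, the lowest with no read filter, where 0.303% of all genes were called higher in SstRed. The order of the libraries in Kcnj8 followed the mural marker sum in part: PkcdRed replicate 2 was lowest in both, while the highest mural sum was in SstRed replicate 3 and the highest Kcnj8 in SstRed replicate 4. The part of mural cells in the Kcnj8 level was not tested.

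Kcnmb1 (chromosome 11, 33962955 to 33973641) encodes the beta-1 subunit that raises the calcium sensitivity of the BK channel in smooth muscle. It also had a higher mean in SstRed libraries. It stood at 9.69, 8.20, 6.97 and 12.4 TPM in PkcdRed replicates 1 to 4 and 35.2, 7.10, 41.0 and 35.6 TPM in SstRed replicates 1 to 4. Again SstRed replicate 2 alone lay within the PkcdRed range, and the other 3 SstRed libraries lay above it. Among the PkcdRed libraries the order differed from that of Kcnj8, with Kcnmb1 lowest in replicate 3 and Kcnj8 lowest in replicate 2. The log2 fold change was -1.71 ± 0.84 (SE; edgeR adjusted p 0.784), with -1.49 (adjusted p 0.9997) and -1.94 (0.643) in the younger and older libraries alone and -1.05 without SstRed replicate 1. Its span lies inside that of Kcnip1, so reads of overlapping transcripts may be uncertain. Kcna5, a Kv1.5 subunit known from smooth muscle and macrophages, was low, at 0.480 to 2.21 TPM in PkcdRed and 0 to 4.47 TPM in SstRed libraries, and was not tested for lack of reads. SstRed replicate 2, the library that overlapped PkcdRed for both Kcnj8 and Kcnmb1, had the lowest mural marker sum of its population (2753 TPM) and the highest oligodendrocyte sum of all (60655 TPM).

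The astrocyte and oligodendrocyte genes overlapped between the populations. Kcnj10 (chromosome 1, 172341210 to 172374085), which encodes Kir4.1, the channel that clears extracellular potassium, had 11.3, 7.73, 9.71 and 0.846 TPM in PkcdRed and 14.8, 39.9, 21.0 and 6.27 TPM in SstRed replicates 1 to 4. Its log2 fold change was -1.35 ± 0.93 (SE; edgeR adjusted p 0.870; -2.25 without PkcdRed replicate 3), and astrocyte and oligodendrocyte marker sums overlapped as well. Kcnj16, which encodes the Kir5.1 partner of Kir4.1, had 54.1, 0, 54.6 and 26.5 TPM in PkcdRed and 33.2, 25.7, 69.2 and 57.2 TPM in SstRed libraries. The value of 0 was in PkcdRed replicate 2, which also had the lowest astrocyte marker sum (451.4 TPM), and the log2 fold change was -0.42 ± 1.23 (SE; adjusted p 0.983) and 0.031 without that library.

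Both tested microglial genes, Kcnk13 and Kcnk6, had higher means in PkcdRed libraries, where the microglial markers were higher too, but neither passed the test, and the part of microglia in their levels was not tested. Kcnk13 (chromosome 12, 99963149 to 100062682), which encodes THIK-1, a leak channel of microglia, had 42.6, 3.90, 2.42 and 41.8 TPM in PkcdRed replicates 1 to 4. In SstRed replicates 1 to 4 it had 2.30, 22.6, 0 and 0.876 TPM. SstRed replicate 2 thus exceeded PkcdRed replicates 2 and 3, although its microglial marker sum, 1661 TPM, was below the 29144 and 48187 TPM of those libraries. The log2 fold change was 3.16 ± 1.90 (SE; edgeR adjusted p 0.845), with 1.57 without PkcdRed replicate 4 and 1.13 (adjusted p 0.9997) in the younger libraries alone. In the older libraries alone Kcnk13 had too few reads to be tested.

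Kcnk6 (chromosome 7, 29221928 to 29232522), which encodes TWIK-2, had 13.98, 16.3, 4.51 and 0.654 TPM in PkcdRed and 1.47, 0.960, 0.677 and 1.14 TPM in SstRed libraries. PkcdRed replicate 4 was the lowest of all 8, with 2 reads, and the other 3 PkcdRed libraries lay above all SstRed libraries. Its log2 fold change was 2.60 ± 1.53 (SE; edgeR adjusted p 0.845), and it was 3.53 (adjusted p 0.9997) in the younger libraries alone. Kcna3, the Kv1.3 subunit of lymphocytes and activated microglia, was highest in SstRed replicate 1 (9.10 TPM), was 2.78 TPM or less in the other 7 libraries and was not tested. Kcnn4, the intermediate-conductance calcium-activated channel of blood cells and microglia, had 0 reads throughout. The microglial class as a whole summed to 6.93 to 59.3 TPM in PkcdRed and 2.02 to 23.6 TPM in SstRed libraries, so its ranges overlapped where those of the microglial markers did not.

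Kcnj2 (chromosome 11, 111066164 to 111076825), which encodes Kir2.1, an inward rectifier of neurons, microglia and endothelium, had the largest positive fold change of the tested members. It had 7.58, 0.598, 16.5 and 1.89 TPM in PkcdRed and 0.492, 0.831, 0.481 and 0.856 TPM in SstRed replicates 1 to 4. 3 of the 4 PkcdRed libraries lay above all SstRed libraries and PkcdRed replicate 2 lay within their range. The log2 fold change was 3.24 ± 1.61 (SE; edgeR adjusted p 0.789), and the alternatives put the adjusted p between 0.127 and 0.9997.

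**Figure D3:**
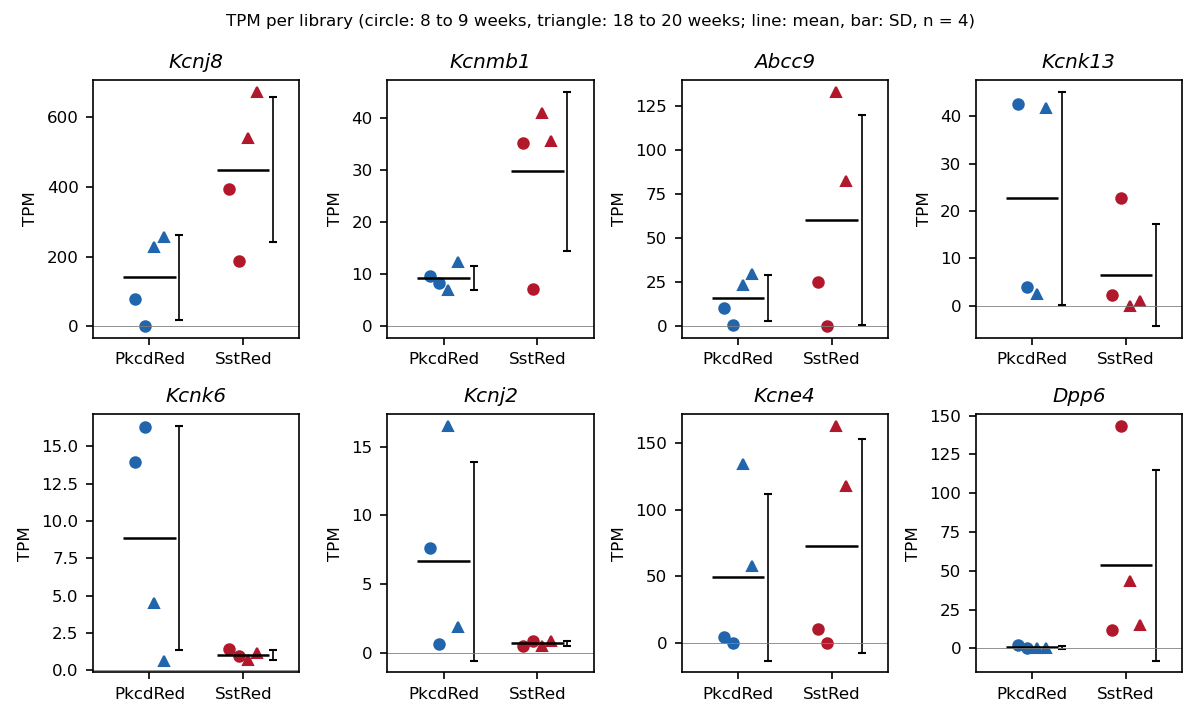
TPM of 6 members (Kcnj8, Kcnmb1, Kcnk13, Kcnk6, Kcnj2 and Kcne4) and 2 partner genes (Abcc9 and Dpp6) in each library (y axes, TPM, a scale of its own for each gene). Circles are mice of 8 to 9 weeks, triangles mice of 18 to 20 weeks, lines the mean and bars the SD of 4; Dpp6 is the gene of the 8 whose populations do not overlap.

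Among the neuronal classes, single libraries held much of the signal. Kv1 to Kv4 pore subunits, which repolarise the spike and set its threshold, had 6 of 13 genes tested, 0 past the threshold and a median log2 fold change of -1.13. Kcna1 (Kv1.1) had 4.35, 6.73, 0.214 and 21.6 TPM in PkcdRed and 9.44, 33.5, 6.99 and 4.07 TPM in SstRed libraries, with a log2 fold change of -0.39 ± 1.205 (SE; edgeR adjusted p 0.984); it was 0.17 without PkcdRed replicate 1 and 0.14 without SstRed replicate 2. Kcna6 (Kv1.6) was highest in SstRed replicate 2 (54.0 TPM), which stood far above the other 7 libraries (0 to 14.9 TPM). Its log2 fold change was -1.65 ± 1.24 (SE; adjusted p 0.884). That value moved to -2.61 without PkcdRed replicate 4 and to -0.83 without SstRed replicate 2. Electrically silent Kv subunits, which modify Kv2 channels, were low: Kcnf1 had 0 to 0.733 TPM in PkcdRed and 0 to 16.5 TPM in SstRed libraries (log2 fold change -4.61, adjusted p 0.757). Kcns3 had reads only in SstRed replicates 3 and 4 (10.1 and 1.88 TPM).

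Kv accessory subunits formed the largest neuronal class by summed TPM in PkcdRed replicates 1 and 2 (101.2 and 198.6 TPM), and stood at 14.2 to 24.7 TPM in the older PkcdRed libraries and 25.0 to 156.9 TPM in SstRed libraries. Kcnip3, the calcium-binding protein KChIP3 that modulates Kv4 channels, had 54.9, 11.3, 1.36 and 0.860 TPM in PkcdRed and 1.36, 88.9, 107.2 and 21.9 TPM in SstRed libraries. SstRed replicate 1 had as little as the older PkcdRed libraries, and the log2 fold change was -2.73 ± 1.77 (SE; edgeR adjusted p 0.861). It was -0.16 in the younger and -5.72 in the older libraries alone, -1.59 and -1.56 without PkcdRed replicates 3 and 4, and -4.15 without SstRed replicate 1. Kcnip2 (KChIP2) was highest in PkcdRed replicate 2 (87.5 TPM), and the other 7 libraries had 0 to 20.2 TPM. KCNQ and EAG subunits, of which KCNQ forms the M-current that curbs repetitive firing, had 2 of 11 genes tested. Kcnq5 had 0 to 5.50 TPM in PkcdRed and 0 to 8.11 TPM in SstRed libraries.

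Neuronal inward rectifiers had 1 of 8 genes tested. Kcnj12 (Kir2.2) had 1.76, 5.52, 0 and 0 TPM in PkcdRed and 0.0421, 25.1, 17.8 and 10.7 TPM in SstRed libraries; 3 SstRed libraries lay above all PkcdRed libraries and replicate 1 did not (log2 fold change -4.08 ± 2.44, SE; edgeR adjusted p 0.845). In the younger libraries alone this value was -1.49 and in the older alone -8.88. Kcnj14 (Kir2.4) was at 49.3 TPM in PkcdRed replicate 2, 31.7 TPM in SstRed replicate 2, and no other library exceeded 1.30 TPM. Of the calcium- and sodium-activated channels, Kcnma1, the BK pore subunit of neurons and smooth muscle, was found in all 8 libraries, at 3.12 to 12.5 TPM in PkcdRed and 2.05 to 23.8 TPM in SstRed. Kcnmb4, the neuronal BK beta-4 subunit, had 23.2, 39.4, 0 and 0 TPM in PkcdRed and 8.16, 108.3, 7.87 and 12.4 TPM in SstRed libraries. Neither BK gene passed: the log2 fold change of Kcnma1 was -0.53 ± 1.23 (SE; edgeR adjusted p 0.973) and that of Kcnmb4 -2.53 ± 1.93 (SE; 0.888). Without 1 library Kcnma1 ran from -1.30 (PkcdRed replicate 3) to -0.039 (PkcdRed replicate 1), and Kcnmb4 was -3.89 without SstRed replicate 1.

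Leak channels of the neuronal class included Kcnk1 (TWIK-1), the fourth most abundant member, which astrocytes are known to express as well. It had 48.3, 0.0650, 26.5 and 1.56 TPM in PkcdRed and 4.64, 81.3, 131.0 and 76.7 TPM in SstRed replicates 1 to 4. 3 SstRed libraries lay above all PkcdRed libraries and SstRed replicate 1 did not (log2 fold change -1.70 ± 1.498, SE; edgeR adjusted p 0.910). The value was -4.23 without PkcdRed replicate 1, -1.09 without PkcdRed replicate 4, and -0.57 in the younger and -2.82 in the older libraries alone. Kcnk2, the mechanosensitive TREK-1 channel, had 7.66, 8.65, 0 and 0 TPM in PkcdRed and 10.04, 45.02, 29.5 and 1.95 TPM in SstRed libraries. Its log2 fold change was -3.87 ± 1.88 (SE; adjusted p 0.784), -1.59 in the younger libraries alone, and over its alternatives the adjusted p was 0.0822 to 0.9997.

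HCN channels were low, summing to 0.224 to 6.57 TPM in PkcdRed and 0 to 12.7 TPM in SstRed libraries. Hcn2, which carries HCN current in many neurons, stood at 6.52, 5.61, 0 and 0.732 TPM in PkcdRed and 0.534, 7.35, 0 and 0.209 TPM in SstRed libraries. The older libraries held 3 Hcn2 reads in all against 579 in the younger ones, and the older libraries were also the shallow ones. Hcn3 had 0 to 1.07 TPM and Hcn4 0 to 0.174 TPM over all 8 libraries, the latter on 4 reads. None of the 4 passed the default read filter, and none passed the test in the fit without a filter. There Hcn2 had a log2 fold change of 1.202 ± 2.45 (SE; edgeR adjusted p 0.959), an error wide enough to leave its direction undetermined.

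The 67 members not named by rule were mostly low: 9 had no read, and their median was 0.461 TPM as a mean over the 8 libraries. 9 of them were tested and 0 passed, among them Kcnab1, Kcnab2, Kcna2, Kcnc1, Kcnd2, Kcnk3, Kcnn2 and Kcne1l. 1 of the 9 log2 fold changes was above 0 (Kcne1l, 1.17 ± 1.59, SE; edgeR adjusted p 0.953). The following were chosen after their values were seen. Kcnip1 (KChIP1, another Kv4 modulator) had 58.3 TPM in PkcdRed replicate 2, 22.0 TPM in SstRed replicate 2, 2.54 TPM in PkcdRed replicate 1 and 0 elsewhere. Kcnip4 had 20.01 and 23.4 TPM in PkcdRed replicates 1 and 2, 0.349 TPM in SstRed replicate 4 and 0 elsewhere. Kcnk12, a relative of Kcnk13 known from neurons, had 24.4 and 39.2 TPM in the same PkcdRed libraries and at most 1.21 TPM in the others. Kcnk10 (TREK-2) had 24.7, 1.81 and 16.1 TPM in SstRed replicates 2 to 4 and 0 reads in the other 5 libraries. Kcnab1, a beta subunit of Kv1 channels, had 0.0507 to 22.8 TPM in PkcdRed and 0.213 to 29.8 TPM in SstRed libraries, and was lowest in replicate 2 of each. Of the 6 unnamed neuronal inward rectifiers, which include the G-protein-gated Kcnj3, Kcnj6 and Kcnj9, the highest value was 6.30 TPM (Kcnj3 in PkcdRed replicate 2). Of the 9 unnamed KCNQ and EAG genes it was 13.7 TPM (Kcnh3 in PkcdRed replicate 2), and of the 11 unnamed Kv1 to Kv4 genes 15.5 TPM (Kcnc2, Kv3.2 of fast-spiking cells, in PkcdRed replicate 2). PkcdRed replicate 2 held the highest value in 5 of the 8 classes of unnamed members. Kcnrg, named by rule as the single member in no class, had at most 1.68 TPM and shares its span with Trim13.

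**Figure D4:**
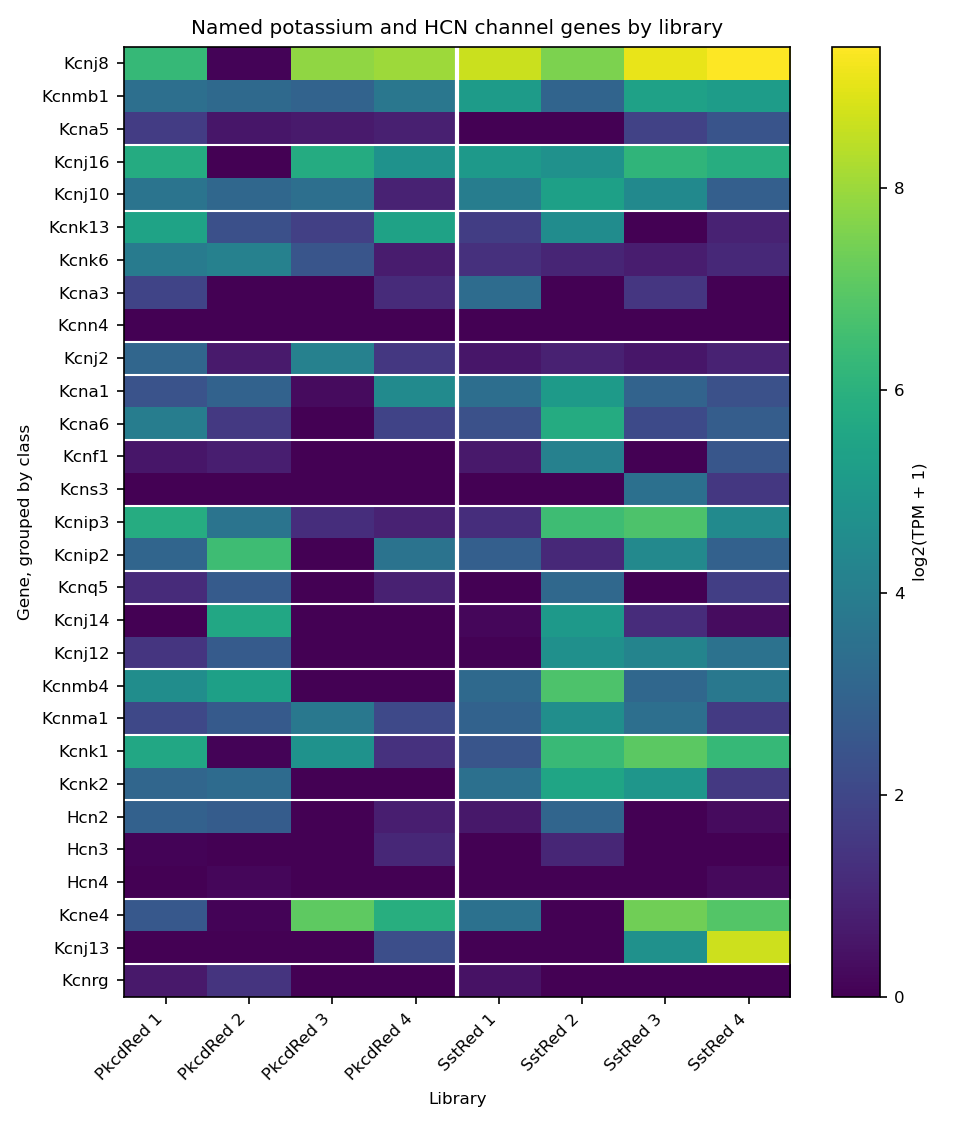
Levels of 29 members named by rule (rows, grouped by class with white lines between classes) in the 8 libraries (columns), as log2(TPM + 1). Kcnj8 is the brightest row in 7 libraries and dark in PkcdRed replicate 2 (0.0677 TPM), and the HCN rows stay at or below 7.35 TPM.

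Of the 18 members known from epithelia and other peripheral tissue, Kcne4 and Kcnj13 had the highest mean TPM. Kcne1l, next in this class and chosen after its values were seen, had reads in all 8 libraries, at 0.108 to 46.6 TPM. Kcnj13 (chromosome 1, 87384577 to 87394729), which encodes Kir7.1 of choroid plexus and retinal epithelium, had 406.2 TPM (745 reads) in SstRed replicate 4. It had 25.7 TPM (28 reads) in SstRed replicate 3, 3.81 TPM (4 reads) in PkcdRed replicate 4 and 0 reads in the other 5 libraries. Kcne2, a minK-type subunit of choroid plexus and stomach, had 25 reads (10.5 TPM) in SstRed replicate 4 and 0 elsewhere; it was named after its values were seen. The choroid plexus marker Ttr stood at 3526 TPM in SstRed replicate 4, whereas the other 7 libraries had at most 27.9 TPM. 6 choroid plexus markers, a list added after the channel values were seen, summed to 3637 TPM there and to 0.0870 to 28.5 TPM elsewhere. Their part in the Kcnj13 level was not tested. The span of Kcnj13 overlaps that of Gigyf2, which bears on how reads could be assigned.

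The study also allows a comparison of older with younger libraries, in which age class cannot be told apart from depth or from a code in the names of the deposited files that splits the libraries the same way and that the labels do not explain. Of the 29 tested members 0 were higher and 0 lower in older libraries in edgeR, where 0.0265% of all genes were called in each direction; 2 members, Kcne4 and Kcnmb4, had an unadjusted p under 0.05, against 8.35% of all genes. Kcnmb4 had lower values on the whole in older libraries, with no reads in the older PkcdRed pair (log2 fold change -4.43 ± 1.98, SE; edgeR adjusted p 0.588). Kcne4 (chromosome 1, 78816911 to 78820032), a minK-type subunit that inhibits Kv1 channels, was the tested member whose age classes did not overlap. It had 4.97, 0.0594, 10.4 and 0 TPM in the younger libraries (PkcdRed replicates 1 and 2, then SstRed replicates 1 and 2) and 134.5, 58.1, 162.5 and 117.7 TPM in the older ones. The means were 118.2 ± 44.1 TPM in older and 3.86 ± 4.95 TPM in younger libraries (SD, n = 4 each). Among all tested genes 4.15% were separated in this direction, so 1 of 29 is near the background. The log2 fold change (older minus younger) was 4.62 ± 1.54 (SE; edgeR adjusted p 0.426). DESeq2 gave an adjusted p of 0.0154, limma on log2(TPM + 1) 0.0394 and edgeR without a read filter 3.63e-04, and over all alternatives it was 3.63e-04 to 0.750. Under those 3 settings 2.21, 0.177 and 0.689% of all genes were called higher in older libraries. Between populations Kcne4 had a log2 fold change of -0.95 ± 1.35 (SE; adjusted p 0.955), and of 0.98 without SstRed replicate 1. Endothelial markers summed to 115.3 to 2727 TPM in younger and 1391 to 4776 TPM in older libraries, and mural markers to 296.6 to 11930 TPM and 3727 to 14812 TPM. The mural marker Rgs5 had 23.7 to 486.3 TPM in younger and 388.8 to 810.4 TPM in older libraries (log2 fold change 1.68 ± 0.66, SE; edgeR adjusted p 0.523). Among the other mural markers of the list only Acta2 was below 0 (older minus younger, log2 fold change -0.41 ± 1.18, SE). The rest ran from 0.33 (Tagln) to 2.29 (Abcc9). SstRed replicate 1 had a mural marker sum of 11930 TPM with 10.4 TPM of Kcne4. Among the endothelial markers, Pecam1 had 0.0357 to 25.6 TPM in younger and 39.0 to 163.8 TPM in older libraries. Esam had 51.4 to 128.8 TPM in younger and 259.2 to 537.2 TPM in older libraries, and the other endothelial markers overlapped between the age classes. The part of endothelial and mural cells in the Kcne4 level was not tested.

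The population difference was also compared between age classes. 0 of the 29 members passed the interaction test of edgeR, as did 0% of all genes in either direction, and Kcnip3 alone had an unadjusted p under 0.05 (0.0452), against 4.12% of all genes.

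13 partner genes outside the symbol rule were read in the same fit, of which 7 could be tested and 0 passed in either direction. Abcc9, which encodes SUR2, the regulatory subunit that assembles with Kir6.1, lies beside Kcnj8 on chromosome 6 (142587862 to 142702766). It had 10.3, 0.802, 23.1 and 29.8 TPM in PkcdRed and 25.3, 0.0157, 133.0 and 82.1 TPM in SstRed replicates 1 to 4. Abcc9 and Kcnj8 parted in SstRed replicate 2, where Kcnj8 had 187.3 TPM. Abcc8, the SUR1 subunit of neurons and beta cells, stood at 0 TPM in 7 libraries and 0.0374 TPM in SstRed replicate 1. Dpp6, a Kv4 auxiliary subunit, had 1.89, 0, 0.399 and 0.253 TPM in PkcdRed and 11.9, 143.2, 43.7 and 15.3 TPM in SstRed libraries, with no overlap. Its log2 fold change was -6.27 ± 1.41 (SE; edgeR adjusted p 0.147). It passed in DESeq2 (adjusted p 3.95e-05) and in edgeR without a read filter (9.87e-06), and the highest adjusted p among its alternatives was 0.780. Under those settings 0.812 and 0.303% of all genes were called higher in SstRed. Among all tested genes 3.05% had all SstRed above all PkcdRed libraries. Oligodendrocyte precursors are known to express Dpp6. Their markers summed to 33.6 to 544.6 TPM in PkcdRed and 53.9 to 2543 TPM in SstRed libraries, highest in the same SstRed replicate 2. PkcdRed replicate 1, with 544.6 TPM, of which Olig1 made up 470.5 TPM, stood above SstRed replicates 1, 3 and 4 (278.2, 246.8 and 53.9 TPM) but below them in Dpp6. Of the 6 precursor markers, 1 had all SstRed above all PkcdRed libraries, as Dpp6 did. That marker, Pdgfra, had 4.82, 0.423, 0.544 and 2.59 TPM in PkcdRed and 12.5, 184.6, 50.9 and 21.9 TPM in SstRed replicates 1 to 4. The part of these precursors in the Dpp6 level was not tested. Pex5l, which encodes TRIP8b, the trafficking partner of HCN channels, had 0 to 35.9 TPM in PkcdRed and 2.13 to 64.1 TPM in SstRed libraries (log2 fold change 0.01 ± 1.24, SE; adjusted p 0.999), and its direction turned without PkcdRed replicate 1 (-0.16), PkcdRed replicate 4 (-1.51), SstRed replicate 1 (-0.26) or SstRed replicate 3 (-0.38).

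The upstream sequences of 4 members are shown because the results above turn on them: the vessel gene Kcnj8, Kcne4 that separated the age classes, Kcnj13 that marked 1 library, and Kcnj2 with the largest positive fold change. Each is the 200 bases before the transcription start in RefSeq (GRCm38.p6), 5′ to 3′ on the gene's strand: chr6:142571615-142571814 (minus), chr1:78816711-78816910 (plus), chr1:87394730-87394929 (minus) and chr11:111065964-111066163 (plus). Capitals mark a TATA box (TATAAA) or the core of a PU.1-type ETS site (GAGGAA), searched on both strands, and a CArG box was searched by name.
Kcnj8: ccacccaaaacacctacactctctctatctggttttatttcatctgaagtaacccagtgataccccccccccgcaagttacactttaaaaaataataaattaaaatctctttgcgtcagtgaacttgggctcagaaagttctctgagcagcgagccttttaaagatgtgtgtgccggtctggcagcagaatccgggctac
Kcne4: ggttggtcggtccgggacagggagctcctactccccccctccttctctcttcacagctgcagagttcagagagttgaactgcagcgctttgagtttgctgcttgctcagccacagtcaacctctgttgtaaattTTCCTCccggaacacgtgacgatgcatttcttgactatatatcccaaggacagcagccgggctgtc
Kcnj13: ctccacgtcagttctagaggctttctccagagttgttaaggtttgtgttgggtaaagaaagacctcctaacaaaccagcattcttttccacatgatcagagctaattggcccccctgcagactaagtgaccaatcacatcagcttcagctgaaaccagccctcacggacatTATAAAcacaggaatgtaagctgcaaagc
Kcnj2: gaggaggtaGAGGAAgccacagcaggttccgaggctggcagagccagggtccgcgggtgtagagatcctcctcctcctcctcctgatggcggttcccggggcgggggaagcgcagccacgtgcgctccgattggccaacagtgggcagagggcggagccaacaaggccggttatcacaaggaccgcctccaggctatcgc
The TATA box letters were found in the Kcnj13 window, in 9.96% of all 32851 windows of this length in the table and in 3.12% of the 96 windows of members. The ETS core was found in the Kcne4 window, on the opposite strand, and in that of Kcnj2, as in 19.0% of all windows and 17.7% of member windows. The CArG box was found in none of the 96 member windows and in 1.18% of all windows. 71 of the 98 members had a window in the table. The Kcnj2 window held 66.5% G and C bases and that of Kcnj13 46%, beside a median of 53% over all windows. These matches describe the letters of the windows and show no binding.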

How the data were processed

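RNA of sorted td-Tomato-positive cells was measured in 8 libraries, amplified with a SMARTer kit according to the labels' protocols. The authors deposited estimated counts and TPM for each transcript, in columns named as kallisto names them. Versions in the submitters' processing notes are 0.43.0 for kallisto and 0.7.12 for BWA, with build mm10, and what BWA was used for is not stated there. Deposited TPM values are relative to length and library total, so they hold no depth.

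Of 30404 targets, 30080 were named by RefSeq accession (GRCm38.p6 table), 147 by GENCODE names, and 177 kept their accession. Sums over the transcripts of a gene were taken of both units, and summed counts were rounded. Reads of similar paralogs were divided by the authors' tool and are uncertain.

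Differences were tested with the quasi-likelihood test of edgeR 4.0.16 (R 4.3.3; TMM, default read filter by population, terms for age class and population), adjusted after Benjamini and Hochberg over all tested genes; threshold 0.05. SE came from the F statistic. The test was run on simulated counts that had no age or cell content differences and a cap on their spread. That run does not give the power of the test in these libraries. Alternatives were RLE scaling, no filter, 10 CPM in 4 libraries, DESeq2 1.42.0, limma 3.58.1 on log2(TPM + 1) and log2(TPM + 0.1), no age term, a replicate block, fits within 1 age class, and fits without 1 library. A log2(TPM + pseudocount) scale understates changes of low genes. The spread behind each p-value is that between mice, sorting and amplification included. Replicate numbers are not pairs by the labels. Members, classes and lists were chosen with earlier results of these data known. Members were named by rule: those past the threshold, all of the glial, vessel, several-source and HCN classes, the 2 of highest mean TPM in each other class, and any separated with a mean of at least 5 TPM. For partners the 3 of highest mean TPM were named, and Abcc8 was chosen after its values were seen. Some members are not reported here by name; they stay in the fits, counts and sums.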

Additional observations from a re-analysis of the deposited data

Results flagged for a closer look

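Single libraries stood apart from the other 3 of their population, by more than the 95% critical value for 4 samples of the gap as a share of the range, in 17 of the 90 sets of 4 values examined (32 named genes and 13 sums of members in 2 populations). Chance gives about 1 in 20 per set for normally distributed values, which TPM values need not be. The sets also share libraries, some sums hold named genes, and sets with 3 values at 0 always exceed the critical value. No excess over chance is read from the count. SstRed replicate 2 was high for Kcna6 (54.0 TPM, next 5.89), Kcnmb4 (108.3, next 12.4), Kcnj14 (31.7, next 1.30), Kcnk13 (22.6, next 2.30), Hcn2 (7.35, next 0.534), Hcn3 (0.996, next 0) and the partner Pex5l (64.1, next 11.4 TPM). PkcdRed replicate 2 was high for Kcnip2 (87.5 TPM, next 10.9), Kcnj14 (49.3, next 0) and Hcn4 (0.112, next 0). It was also high for the summed TPM of KCNQ and EAG subunits (59.6, next 4.85) and of neuronal inward rectifiers (66.0, next 7.10). SstRed replicate 4 was high for Kcnj13 (406.2 TPM, next 25.7) and Hcn4 (0.174, next 0). PkcdRed replicate 4 was high for Kcnj13 (3.81 TPM, next 0) and Hcn3 (1.07, next 0.0545). SstRed replicate 1 was high for Kcnrg (0.389 TPM, next 0), the single member outside all classes. PkcdRed replicate 2 and SstRed replicate 2 had the highest neuronal marker sums of their populations (614.3 and 602.5 TPM). PkcdRed replicate 1 had a sum of 547.0 TPM, with 7.42 TPM of Kcnip2 and 0 TPM of Kcnj14. SstRed replicate 2 also had the highest oligodendrocyte and precursor marker sums (60655 and 2543 TPM). The part of any cell type in these values was not tested.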

How the results depend on the processing

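No member passed between populations in edgeR with all 8 libraries, nor with RLE scaling, a filter of 10 CPM in 4 libraries, DESeq2, limma at either pseudocount, no age class term, either age class alone or any 1 library left out (0 to 0 in each direction). With no read filter 1 of 88 members (Kcnj8) was higher in SstRed, as were 0.303% of all genes. For age, 2 of 88 members (Kcne4 and Kcnj13) were higher in older libraries with no read filter (0.689% of all genes), 1 of 29 with DESeq2 (2.21%) and 1 of 29 with limma on log2(TPM + 1) (0.177%), the last an alternative chosen after seeing the data; leaving out a library gave 0 to 0. The cause of these differences was not tested. The median log2 fold change of the tested members was -1.35, and it was -0.12 with no filter, -0.64 with limma on log2(TPM + 1), -0.83 with no age term, -0.030 in younger libraries alone and -1.77 to -0.65 with 1 library left out; the number of members tested also changes. With the replicate number as a block 0 members passed and the median was -1.499. Same-numbered libraries correlated at 0.0764, 0.124, 0.0615 and 0.174 in their deviations from the population mean, and 2 of 4 PkcdRed libraries correlated best with their own number, so they were not treated as pairs.

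25 of the 390 gene values under alternatives changed sign. Kcna1 was 1.02 and Kcnma1 0.71 in older libraries alone. Kcnip2 was -0.14 with limma on log2(TPM + 0.1) and -1.19 in older libraries alone. Kcnq5 was 0.44 with limma on log2(TPM + 0.1), 0.74 with the block and 0.025 in younger libraries alone. Pex5l was -0.026 with RLE and -0.026 with DESeq2, -0.30 and -0.99 with limma at 1 and 0.1, -0.22 with no age term, -0.46 with the block and -0.31 in younger libraries. Leaving out 1 library gave -2.65 to 0.17 for Kcna1, -1.83 to 0.98 for Kcne4, -0.28 to 2.41 for Kcnip2, -2.14 to 0.031 for Kcnj16, -1.53 to 1.15 for Kcnq5 and -1.51 to 0.73 for Pex5l. Older libraries, with 964361 to 2522749 counts, limit the detection of low genes. The direction of Kcnip2 turned without PkcdRed replicate 2 (-0.28) and that of Kcnq5 without SstRed replicate 2 (0.18) or SstRed replicate 4 (1.15).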
